A study of Mus musculus with 2 samples.

Results

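The Hox genes encode homeodomain transcription factors and lie in 4 clusters of the mouse genome, HoxA on chromosome 6, HoxB on chromosome 11, HoxC on chromosome 15 and HoxD on chromosome 2. They were followed here in growth plate cartilage of wild-type C57BL/6J mouse embryos at E17.5, on 1 array of cartilage enriched in columnar and hypertrophic chondrocytes and 1 array of cartilage enriched in round chondrocytes. Members were taken by symbol, as every gene of the platform annotation named Hox with a cluster letter and a paralogue number that had a probe set naming it alone. The rule found 33 genes with 48 probe sets, of 18193 named genes and 45101 probe sets in all. The mouse genome has 39 Hox genes, and 6 of them were not analysed here as single genes, among them Hoxb8 and Hoxd4, which are named together with a neighbour.

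Genes of the same paralogue number in different clusters descend from 1 ancestral gene and have very similar homeodomains. Within a cluster the order of the genes follows the order in which they are used along the body axis, so that low numbers are anterior and high numbers posterior. In the limb the posterior HoxA and HoxD genes assign segments along the proximal to distal axis, with groups 9 and 10 acting in the upper segment, group 11 in the middle segment and group 13 in the hand and foot, and Hox genes remain in use in the cartilage and perichondrium of growing bones.

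For each array the RNA of 3 pieces of cartilage plate had been pooled, so each group was 1 array, no replicate check of any difference was possible, and no p-value is given. The pieces were enriched in 1 kind of chondrocyte and not purified, and in mixed tissue fewer cells of a type and less RNA per cell cannot be told apart. Cartilage genes were bright on both arrays, with MAS5 signals, the linear intensities deposited for each probe set, of 37936 on the columnar/hypertrophic array and 33307 on the round array for Col2a1, the main cartilage collagen, and of 7203 and 7815 on the same arrays for Sox9, the chondrocyte transcription factor. Col10a1, the collagen of hypertrophic cartilage, had a signal of 10818 on the columnar/hypertrophic array and 24.2 on the round array. A signal under 100.5, the level under which 95% of the probe sets of smell, taste and pheromone receptor genes lay, was treated as not distinguishable from background and is called the floor. Differences are log2 signals of the columnar/hypertrophic array minus those of the round array, with signals under the floor raised to it, and where 1 of the signals was under the floor the difference is only a bound, given as at least so many fold.

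Most measured Hox genes had lower signals in columnar/hypertrophic cartilage than in round cartilage. Of the 33 genes, 14 passed the floor on the columnar/hypertrophic array and 16 on the round one, 13 on both and 17 on either. Among these 17, a decrease of at least 2-fold in columnar/hypertrophic cartilage was found for 8 (Hoxa9, Hoxa10, Hoxa11, Hoxc4, Hoxc5, Hoxc6, Hoxc8 and Hoxd9), against 6.37% of the 11703 named genes that passed the floor likewise. None was at least 2-fold higher, against 4.31% of those named genes. A difference below 0 was found for 16 of the 17, against 6423 of the 11703 named genes. Hoxa7 was so close to 0 that its sign changed with the scaling, and Hoxb2 was the exception. Genes above the floor on the round array alone had to come out lower, and 3 of the 16 were of that kind. Hoxb2 passed the floor on the columnar/hypertrophic array alone and likewise had to come out higher. Of the 13 Hox genes that passed it on both, 7 showed a decrease of at least 2-fold and 0 an increase of that size. Among the 10235 named genes with the same property, 5.42% were lower and 3.98% higher by that size. All 13 were below 0, with the same reservation for Hoxa7, against 5356 of those 10235 named genes.

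The median difference of the 17 Hox genes was -0.97, and that of all named genes that passed the floor was -0.05. Over the 13 genes measured on both arrays the median was -1.04, and it was -0.03 for all named genes of that kind. In the distribution over all named genes, 14 of the 17 lay under the 25th percentile of -0.39 and 7 lay under the 5th percentile of -1.11. The spread to set these values against is technical, since the differences of several probe sets of the same gene had an SD of 0.37 over 4825 genes. The spread between embryos or pieces of cartilage was not measured.

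Markers of perichondrium, fibroblasts and tendon and markers of the round zone moved in the same direction as the Hox genes. Of 14 markers of perichondrium, fibroblasts and tendon, 11 passed the floor and 9 of them were below 0. Lower by 2-fold or more were 6 of the 11, against 6.37% of all named genes that passed the floor. Their median was -1.26, and the summed signal over the list was 53405 on the columnar/hypertrophic array and 108960 on the round array. Dpt, Thy1 and Scx were under the floor on both arrays, while Postn, a periosteal matrix protein, had 158 on the columnar/hypertrophic array and 1919 on the round array. Dcn differed by -2.42, Col3a1 by -2.40 and Tnmd, a tendon marker, was at least 3.09-fold lower. All 11 analysed markers of round and resting chondrocytes were below 0, with a median of -3.02 and a summed signal of 7065 on the columnar/hypertrophic array and 50195 on the round array, led by Sfrp2, Prg4, Wif1 and Grem1. The 33 Hox genes had a summed signal of 9726 on the columnar/hypertrophic array and 23222 on the round array. Much of each sum came from Hoxa9, with 3480 and 7921 on these arrays, and Hoxa10, with 1491 and 4947. The sums therefore do not describe the genes evenly. The part of other cells, or of the share of round chondrocytes, in the Hox differences was not tested. The 11 markers of all chondrocytes had a median of 0.33 and lay between -0.64 and 0.54. Lists of further cell types had few measured genes. Medians were -0.485 for 5 macrophage and osteoclast markers, -0.155 for 4 of skeletal muscle, -0.11 for 4 of skin and epithelium and -0.04 for 2 of nerve. The 2 measured osteoblast markers, Sp7 at 3.51 and Ifitm5 at 0.58, had a median of 2.04. Of these, Sp7 was also listed as a marker of hypertrophic chondrocytes. The 1 measured endothelial marker stood at 0.26.

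**Figure D1:**
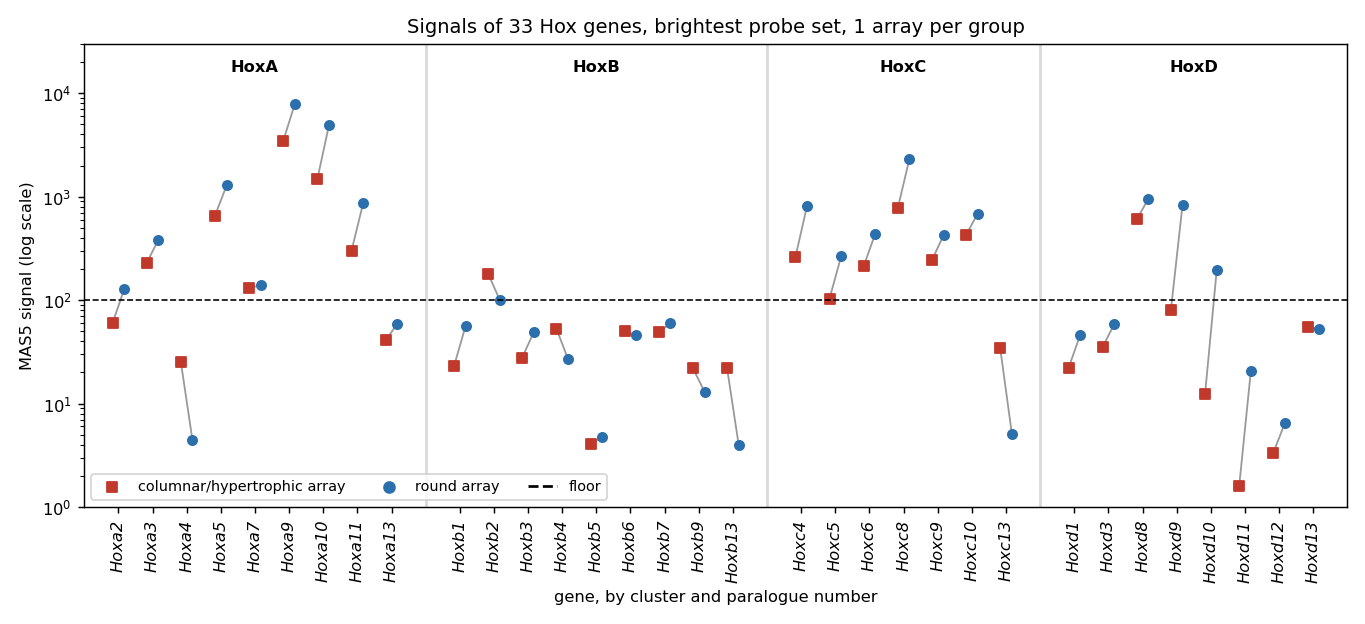
MAS5 signals (vertical axis, log scale) of the brightest probe set of each of the 33 Hox genes, by cluster and paralogue number (horizontal axis), with squares for the columnar/hypertrophic array, circles for the round array, 1 array per group, and the floor of 100.5 as a dashed line. Of the 17 genes above the floor on at least 1 array, Hoxb2 alone has a clearly higher square than circle, Hoxa7 has both at nearly the same height, and 8 of the 9 HoxB genes lie under the floor on both arrays.

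The posterior genes of the HoxA cluster were lower together. Hoxa9, a group 9 gene that acts with its paralogues in the upper limb, had a signal of 3480 on the columnar/hypertrophic array and 7921 on the round array, a difference of -1.19 or 2.28-fold lower. Its other probe set had 875 on the columnar/hypertrophic array and 2000.3 on the round array, a difference of -1.19. Both probe sets of Hoxa9 thus gave the same size of difference.

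Hoxa10, whose loss with its group 10 paralogues leaves the upper hindlimb bone malformed in mice, had 1491 on the columnar/hypertrophic array and 4947 on the round array, a difference of -1.73 or 3.32-fold lower. Its other, dimmer probe set had 76.2 on the columnar/hypertrophic array and 188 on the round array, at least 1.87-fold lower. Hoxa11, needed with Hoxd11 for the bones of the middle limb segment, had 302 on the columnar/hypertrophic array and 868 on the round array, a difference of -1.53 or 2.88-fold lower, from a single probe set. Hoxa13, the group 13 gene of the hand and foot plate, was under the floor on both arrays, with signals of 40.8 on the columnar/hypertrophic array and 59.3 on the round array.

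The windows around the annotated starts of Hoxa10 and Hoxa11 are shown because these neighbours had the most negative differences of the HoxA cluster. They run from 250 bases before to 50 after a start, 5′ to 3′ on the minus strand of GRCm38.p6 (RefSeq), at chr6:52240805-52241104 and chr6:52234890-52235189 for the 2 starts of Hoxa10 and chr6:52245761-52246060 for Hoxa11. Capitals mark a motif found by the search described further on. Here it is TATAAA, read on the opposite strand and beginning 160 bases before the second start of Hoxa10.
Hoxa10, first start: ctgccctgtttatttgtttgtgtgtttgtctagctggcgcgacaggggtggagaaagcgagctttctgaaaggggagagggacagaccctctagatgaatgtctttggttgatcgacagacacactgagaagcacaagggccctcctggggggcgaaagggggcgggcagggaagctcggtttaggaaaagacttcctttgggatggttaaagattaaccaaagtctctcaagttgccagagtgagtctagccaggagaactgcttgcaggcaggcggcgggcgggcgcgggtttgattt
Hoxa10, second start: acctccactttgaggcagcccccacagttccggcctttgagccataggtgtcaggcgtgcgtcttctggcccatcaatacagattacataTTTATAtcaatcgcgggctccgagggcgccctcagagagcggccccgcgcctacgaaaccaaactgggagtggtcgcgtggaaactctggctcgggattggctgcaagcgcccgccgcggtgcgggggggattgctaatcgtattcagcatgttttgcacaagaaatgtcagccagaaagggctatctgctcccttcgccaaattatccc
Hoxa11: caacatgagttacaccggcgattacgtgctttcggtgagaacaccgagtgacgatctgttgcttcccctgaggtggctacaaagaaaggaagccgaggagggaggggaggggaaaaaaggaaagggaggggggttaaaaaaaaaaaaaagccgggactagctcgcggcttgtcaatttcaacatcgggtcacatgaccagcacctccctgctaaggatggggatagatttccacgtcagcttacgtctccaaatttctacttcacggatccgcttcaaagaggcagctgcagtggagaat

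The anterior and middle HoxA genes differed less, although the value of Hoxa2 is only a bound. Hoxa2, a hindbrain and branchial arch gene, had 60.01 on the columnar/hypertrophic array and 128 on the round array, at least 1.27-fold lower. Hoxa3, which acts in the pharyngeal region, had 229 on the columnar/hypertrophic array and 383 on the round array in its brightest probe set, a difference of -0.74. Its 3 other probe sets were also below 0, at -0.09, -0.79 and a bound of -0.30, so they shared the direction but not the size. Hoxa5, which acts in cervical vertebrae and lung, had 657 on the columnar/hypertrophic array and 1285 on the round array, a difference of -0.97. A second probe set of Hoxa5, of the x kind that can bind related transcripts, gave 540 on the columnar/hypertrophic array and 668 on the round array, a difference of -0.31. Hoxa7, a trunk gene, had nearly equal signals of 130 on the columnar/hypertrophic array and 140 on the round array, a difference of -0.10 that was smaller than the technical spread. Both probe sets of Hoxa4 were under the floor on both arrays.

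By position the HoxA genes fell into a posterior group of Hoxa9, Hoxa10 and Hoxa11, at -1.73 to -1.19, and the 4 measured genes from Hoxa2 to Hoxa7, at -0.97 to -0.10. The groups did not overlap in any of the 9 ways of processing that were tried, but all of these used the same arrays. Hoxa2 and Hoxa7, with 128 and 140 on the round array, were too near the floor of 100.5 to reach -1.19. Neither could therefore have overlapped the posterior group as reported, and under the highest floor tried both dropped out. As reported, only Hoxa3 and Hoxa5 could have shown an overlap. The grouping by position was chosen after the values were seen, and the gap between -1.19 and -0.97 was smaller than the technical spread.

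In the HoxC cluster all 6 measured genes were lower. Hoxc4, a neck and upper trunk gene, had 260 on the columnar/hypertrophic array and 812 on the round array, a difference of -1.64 or 3.12-fold lower. Hoxc8, which acts in the thoracic trunk, had 778 on the columnar/hypertrophic array and 2322 on the round array, a difference of -1.58 or 2.99-fold lower. Each of these rested on a single probe set. For both the difference was over 4 times the technical spread of 0.37, which holds no variation between arrays. That spread was pooled over 4825 genes. Probe sets of Hoxa9 lay closer, at -1.19 and -1.19, and those of Hoxd8 further apart, at -0.65 and -2.06.

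Hoxc5 had 104 on the columnar/hypertrophic array, barely above the floor, and 265 on the round array, a difference of -1.36, while its other probe sets were under the floor on both arrays with 1.93 and 19.3 on the columnar/hypertrophic array and 92.6 and 6.89 on the round array. The call of Hoxc5 therefore rested on 1 of its 3 probe sets. Hoxc6, a gene of the thoracic region, had 213 on the columnar/hypertrophic array and 439 on the round array in its brightest probe set, which is of the x kind, a difference of -1.04. A second probe set gave 160 on the columnar/hypertrophic array and 349 on the round array, a difference of -1.13, and the third was under the floor on both arrays.

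The posterior HoxC genes were lower by less than 2-fold. Hoxc9, a trunk gene, had 244 on the columnar/hypertrophic array and 424 on the round array, a difference of -0.79. Hoxc10, which in the limbs is a hindlimb gene, had 428 on the columnar/hypertrophic array and 688 on the round array, a difference of -0.68. Hoxc13, known for its role in hair and nails, was under the floor on both arrays. Hoxc4 to Hoxc8 thus lay at -1.64 to -1.04, with Hoxc9 and Hoxc10 nearer to 0, a grouping also chosen after the values were seen. The gap between -1.04 and -0.79 was smaller than the technical spread. The grouping held in 8 of the 9 ways of processing and was lost when all probe sets of a gene were averaged, where Hoxc5 stood at -0.45.

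Of the HoxD genes 3 were measured, and all were lower in columnar/hypertrophic cartilage. Hoxd9, the HoxD gene of group 9, had 81.1 on the columnar/hypertrophic array, under the floor, and 840 on the round array, at least 8.36-fold lower, from a single probe set. Hoxd10, its neighbour, had 12.4 on the columnar/hypertrophic array, also under the floor, and 194 on the round array, at least 1.93-fold lower. The bound for Hoxd10 was smaller because its signal on the round array was nearer to the floor, so the bounds do not rank the genes. Hoxd8 had 608 on the columnar/hypertrophic array and 953 on the round array in its brightest probe set, a difference of -0.65. Its other probe set, of the s kind that can bind several related transcripts, gave 169 on the columnar/hypertrophic array and 705 on the round array, a difference of -2.06. The probe sets of Hoxd8 agreed in direction and differed by more than the technical spread in size.

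Hoxd1, Hoxd3, Hoxd11, Hoxd12 and Hoxd13 were under the floor on both arrays. Hoxd11, the HoxD partner of Hoxa11 in the middle limb segment, had 1.61 on the columnar/hypertrophic array and 20.5 on the round array, and no fold is given for it. The 2 probe sets that Hoxd4 shares with Hoxd3 were also under the floor, with 18.0 and 9.89 on the columnar/hypertrophic array and 90.1 and 87.0 on the round array.

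The start windows of Hoxc4, Hoxd9 and Hoxd10 follow, because these genes had the most negative difference measured on both arrays in HoxC and the 2 bounds of HoxD. All lie on the plus strand of GRCm38.p6 (RefSeq), at chr15:103034145-103034444, chr2:74697513-74697812 and chr2:74691641-74691940. Capitals mark AGGTCA, read here on the opposite strand and beginning 146 bases before the start of Hoxc4 and 69 bases before that of Hoxd10, and none of the motifs searched was in the window of Hoxd9.
Hoxc4: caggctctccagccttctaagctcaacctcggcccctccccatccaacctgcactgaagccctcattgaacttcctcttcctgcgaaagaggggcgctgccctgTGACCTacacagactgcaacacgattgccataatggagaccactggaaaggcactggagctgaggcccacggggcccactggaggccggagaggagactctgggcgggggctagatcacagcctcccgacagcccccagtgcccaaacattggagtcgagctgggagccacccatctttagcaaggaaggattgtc
Hoxd9: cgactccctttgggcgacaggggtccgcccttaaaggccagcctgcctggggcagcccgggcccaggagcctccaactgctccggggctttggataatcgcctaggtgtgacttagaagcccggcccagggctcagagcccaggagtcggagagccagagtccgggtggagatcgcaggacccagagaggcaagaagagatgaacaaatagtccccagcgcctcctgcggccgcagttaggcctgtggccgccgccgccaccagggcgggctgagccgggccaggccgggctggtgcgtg
Hoxd10: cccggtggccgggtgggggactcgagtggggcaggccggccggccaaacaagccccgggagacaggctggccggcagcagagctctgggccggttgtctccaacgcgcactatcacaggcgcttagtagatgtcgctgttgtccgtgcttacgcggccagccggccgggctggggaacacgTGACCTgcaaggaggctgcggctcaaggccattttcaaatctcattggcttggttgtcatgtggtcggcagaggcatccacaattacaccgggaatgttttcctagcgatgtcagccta

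HoxB genes were almost all under the floor. Of its 9 genes, Hoxb1, Hoxb3, Hoxb4, Hoxb5, Hoxb6, Hoxb7, Hoxb9 and Hoxb13 were under the floor on both arrays in every probe set, with brightest probe sets between 4.03 and 52.9 on the columnar/hypertrophic array and between 3.96 and 59.8 on the round array. The probe set that Hoxb8 shares with Hoxb7 was under it as well, at 16.5 on the columnar/hypertrophic array and 52.8 on the round array. Hoxb2, a hindbrain gene, had 180 on the columnar/hypertrophic array and 100.4 on the round array, just under the floor, at least 1.80-fold higher. Among the measured Hox genes it alone was brighter in columnar/hypertrophic cartilage, and it had a single probe set. It passed the floor on that array alone, so it could not have come out lower.

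**Figure D2:**
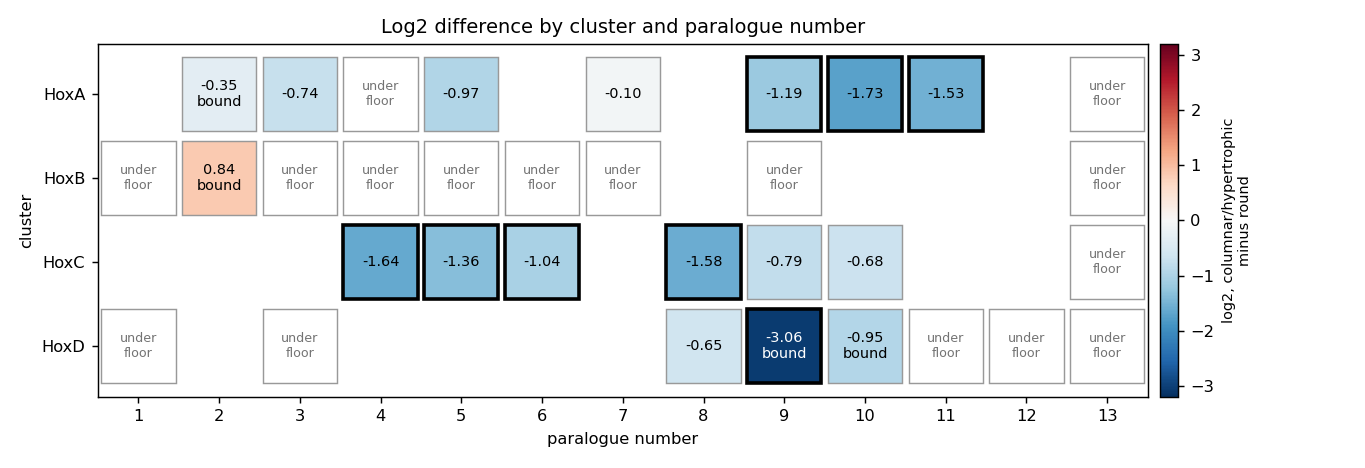
Log2 difference of each Hox gene (colour and number, columnar/hypertrophic minus round, 1 array per group), with clusters as rows and paralogue numbers as columns, thick frames for at least 2-fold, bounds marked and genes under the floor on both arrays in white. The framed genes are Hoxa9 to Hoxa11, Hoxc4 to Hoxc8 and Hoxd9, and the only value above 0 is 0.84 for Hoxb2.

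The clusters overlapped in size. Differences ran from -1.73 to -0.10 with a median of -0.97 in HoxA, from -1.64 to -0.68 with a median of -1.20 in HoxC, and from -3.06 to -0.65 with a median of -0.95 in HoxD, where 2 of the 3 values are bounds. The order of these medians changed with the processing.

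Paralogues were compared where at least 2 of a number were measured. In group 9, Hoxa9 stood at -1.19 and Hoxc9 at -0.79, which differed by -0.39 against a technical SD of 0.52 for a difference of that kind, while the bound for Hoxd9 was -3.06. In group 10, Hoxa10 at -1.73 and Hoxc10 at -0.68 differed by -1.05, about 2 technical SDs, and the bound for Hoxd10 was -0.95. In group 5, Hoxa5 at -0.97 and Hoxc5 at -1.36 differed by 0.39. In group 8, Hoxc8 at -1.58 and Hoxd8 at -0.65 differed by -0.93, but the second probe set of Hoxd8 at -2.06 lay on the other side of Hoxc8. Group 2 was the only number whose measured members lay on opposite sides of 0, with Hoxa2 at a bound of -0.35 and Hoxb2 at a bound of 0.84. Hoxa2 passed the floor on the round array alone and Hoxb2 on the columnar/hypertrophic array alone. Both signs were therefore fixed by the floor and are no contrast between paralogues. All 4 analysed genes of group 13 were under the floor on both arrays.

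By ranges of the numbering, the median difference was -0.35 for the 3 measured genes of groups 1 to 3, -1.04 for the 7 of groups 4 to 8 and -1.19 for the 7 of groups 9 to 13. A decrease of at least 2-fold was found in 0 genes of the first set, in 4 of the second and in 4 of the third. The share over all named genes that passed the floor was 6.37%. The median of the first set is the bound of Hoxa2, whose 128 on the round array was too near the floor to show 2-fold. Hoxb2 could only come out higher, so neither gene could be called lower. The first set therefore cannot be ranked against the others. Differences ran from -1.64 to -0.10 in the middle set and from -3.06, a bound, to -0.68 in the posterior set, so these sets overlapped. Hoxa7 in the middle set and Hoxd10 in the posterior set, with 140 and 194 on the round array, were also too near the floor to show 2-fold.

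**Figure D3:**
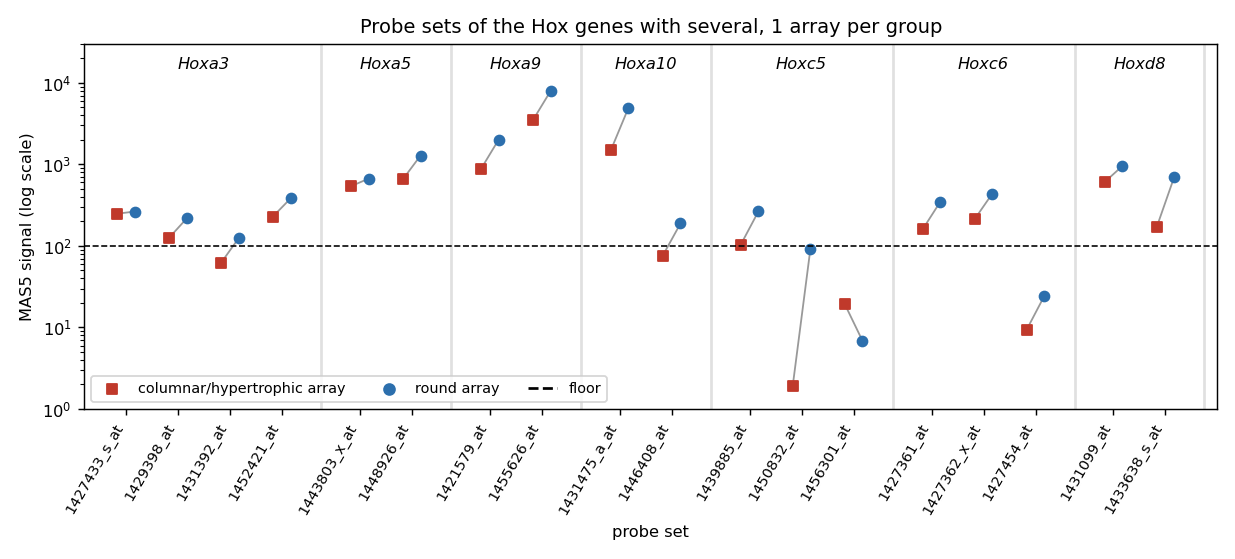
MAS5 signals (vertical axis, log scale) of each probe set (horizontal axis) of the 7 Hox genes with several probe sets and at least 1 above the floor of 100.5 (dashed line), with squares for the columnar/hypertrophic array and circles for the round array, 1 array per group. The square lies under the circle in every probe set except 1 of Hoxc5 that is under the floor on both arrays.

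Neighbouring Hox genes can share transcripts, and the array cannot part all of them. In the RefSeq gene table of GRCm38.p6 the spans of 10 of the 39 Hox genes overlap another Hox gene, and 3 of these were among the measured genes. Hoxa3 overlaps Hoxa4, Hoxa5 and a further HoxA gene, and Hoxd10 overlaps Hoxd11. Without probe sets of the s and x kinds the count of genes at least 2-fold lower was 8 again.

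Of the non-coding RNAs of the clusters, 2 passed the floor, both on the round array alone, so that a lower value was the only direction they could show. Hoxa11os, transcribed from the strand opposite to Hoxa11, had 82.8 on the columnar/hypertrophic array and 352 on the round array, at least 3.50-fold lower, with its second probe set under the floor on both. Hoxd3os1, a transcript opposite to Hoxd3, had 10.0 on the columnar/hypertrophic array and 481 on the round array, at least 4.79-fold lower, again with a second probe set under the floor. Hoxb5os was under the floor on both arrays, as were its HoxB neighbours. These RNAs were chosen from a list of the clusters' non-coding genes, of which 3 had a probe set of their own here.

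The start windows of the Hox genes were searched on both strands for 5 short motifs. RefSeq windows were given for 19 of the 33 genes, 21 windows in all, with Hoxc4 as the sole HoxC gene. TGATNNAT, a core bound by HOX with PBX proteins, was in 3 of the 21 windows, against 8.85% of 32851 windows of all genes. TGACAG, the core of MEIS proteins, was in 2 of the 21 against 19.2%, and TTTATGG, bound by CDX and posterior HOX proteins, was in 0 of the 21 against 2.75%. AGGTCA, the half-site of retinoic acid receptors, was in 6 of the 21 against 16.3%, and TATAAA was in 2 of the 21 against 13.6%. The only hits that overlapped each other were the TATAAA matches on both strands of the Hoxd13 window. The windows held more CpG pairs than usual, with a median of 15 against 7 over all windows, and a median GC content of 58.0% against 52.7%. These are matches of letters and not sites, and genes with and without them were found among those that were lower.

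Partners of HOX proteins showed a mixed pattern. The TALE homeodomain proteins of the PBX, MEIS and PKNOX families bind DNA with HOX proteins, and 6 of the 8 analysed passed the floor. Of these, 2 were lower by 2-fold or more and none higher by as much, with a median of -0.61. Over all named genes that passed the floor, 6.37% were lower and 4.31% higher by that size. Meis2, a proximal limb gene, had 108 on the columnar/hypertrophic array and 431 on the round array, a 4-fold lower signal, and 3 other probe sets were lower as bounds. Meis1 had 244 on the columnar/hypertrophic array and 490 on the round array, a difference of -1.01, with another probe set at -0.74. Pknox2 was at least 1.71-fold lower. Pbx3 went the other way, with 1281 on the columnar/hypertrophic array and 755 on the round array, a difference of 0.76.

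Known regulators of the clusters went both ways. Of 26 analysed genes of retinoic acid signalling, CDX and trithorax, 14 passed the floor, with a median of -0.01, and 1 of them changed by 2-fold or more in its brightest probe set. That one was Aldh1a3, which makes retinoic acid, with 532 on the columnar/hypertrophic array and 17.6 on the round array, at least 5.29-fold higher, with bounds of 0.27 and 0.26 from its other probe sets. Rdh10, an earlier enzyme of the same route, had 544 on the columnar/hypertrophic array and 1064 on the round array, a difference of -0.97, and its other probe set had 296 on the columnar/hypertrophic array and 971 on the round array, a difference of -1.72. Psip1, a chromatin protein that binds Hox loci, differed by 0.77 while Zbtb16, a limb regulator of Hox genes, differed by -0.57 but by a bound of 0.52 in another probe set. Polycomb proteins keep Hox genes silent, and of 26 analysed subunits 24 were above the floor on both arrays, with a median of -0.38. Below 0 were 17 of these 24 subunits, against 5356 of the 10235 named genes above the floor on both arrays. Cbx6, a subunit of the first Polycomb complex, was the only one past 2-fold in its brightest probe set, with 1929 on the columnar/hypertrophic array and 5073 on the round array, a difference of -1.40, followed by Cbx2 at -0.96, Phf19 at -0.80 and Jarid2 at -0.78, the last with other probe sets at -0.08 and -1.08.

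Genes just outside the clusters did not share the shift. Of 15 analysed, 12 passed the floor, 6 below 0 and 6 above, with a median of 0.03. Snx10, on the anterior side of the HoxA cluster, had 471 on the columnar/hypertrophic array and 166 on the round array, a difference of 1.51, and its second probe set was under the floor. Skap2, between Snx10 and the cluster, had 608 on the columnar/hypertrophic array and 218 on the round array, a difference of 1.48, but 0.31 in another probe set. Both lay above 0 while the 7 measured HoxA genes lay below it, apart from the change of sign of Hoxa7 with the scaling. On the other side Hibadh differed by -0.46, and Calcoco1, by the HoxC cluster, was at least 2.01-fold lower.

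Homeobox genes outside the clusters went both ways. Of 48 analysed, 22 passed the floor, with a median of -0.40. By 2-fold or more, 5 were lower and 3 higher, against 8 of 17 lower and 0 higher for the Hox genes. For all named genes that passed the floor the shares were 6.37% lower and 4.31% higher. Dlx5, which promotes hypertrophy, had 1866 on the columnar/hypertrophic array and 142 on the round array, a difference of 3.71. Barx1, a gene of joint regions, had 105 on the columnar/hypertrophic array and 769 on the round array, a difference of -2.88. Irx5 was at least 3.80-fold higher, while Lhx9 was at least 3.53-fold lower. No test of the difference between these genes and the Hox genes was possible with 1 array per group.

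Genes known as targets of HOX proteins or for limb patterning also went both ways, with a median of -0.69. Of 23 measured genes, 10 were lower and 4 higher by 2-fold or more. The shares over all named genes that passed the floor were 6.37% and 4.31%. Tbx4, the hindlimb T-box gene, had 52.1 on the columnar/hypertrophic array and 3441 on the round array, at least 34.2-fold lower. Itga8, an integrin subunit that HOX11 proteins regulate in the kidney, had 167 on the columnar/hypertrophic array and 3877 on the round array, a difference of -4.54. Ihh, the signal of prehypertrophic cells, and Runx3, which drives their maturation, differed by 3.91 and 3.89 in the other direction.

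**Figure D4:**
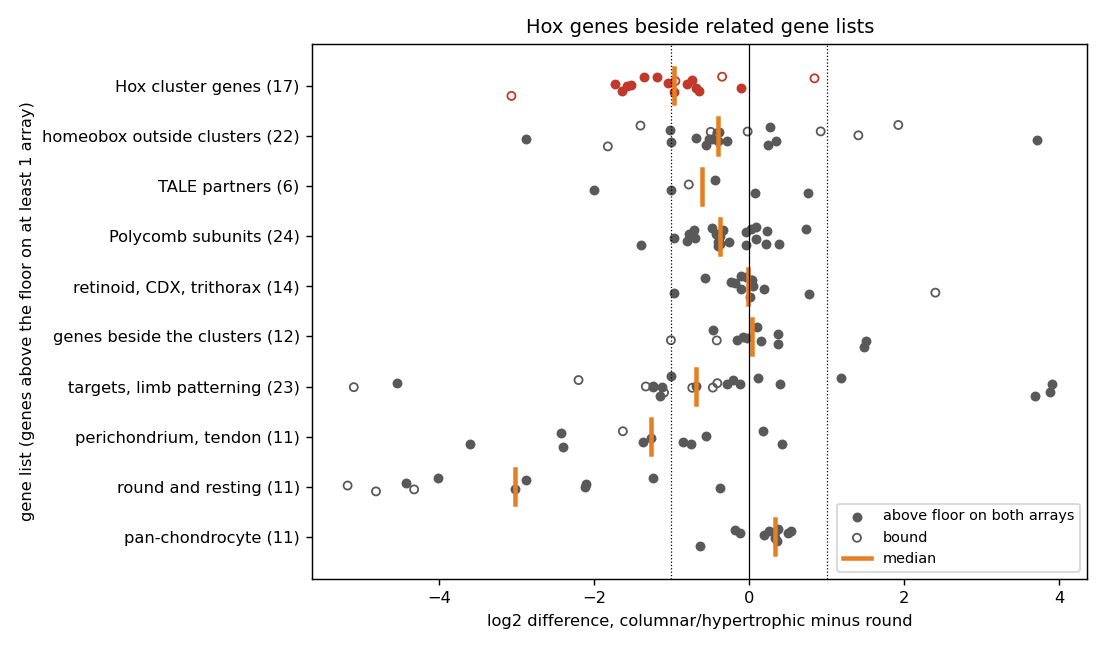
Log2 difference (horizontal axis, columnar/hypertrophic minus round, 1 array per group) of each gene above the floor on at least 1 array, by gene list (vertical axis, number of such genes in brackets), with filled points for genes above the floor on both arrays, open points for bounds, bars for medians and dotted lines at 2-fold. The Hox median of -0.97 lies left of those of the other homeobox genes, the TALE partners and the regulators, and right of those of the perichondrium and round chondrocyte lists.

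The size of the Hox differences was stable for some genes and not for others. Hoxa10, Hoxa11, Hoxc4, Hoxc8 and Hoxd9 were at least 2-fold lower in each of the 9 ways of processing, Hoxa9 in 8, Hoxc5 in 7 and Hoxc6 in 4. Across these ways Hoxa10 lay between -1.80 and -1.32, Hoxc8 between -1.60 and -1.30 and the bound of Hoxd9 between -3.35 and -2.53. Hoxa7 lay between -0.10 and 0.18 and was below 0 in 5 of its 8 values.

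**Figure D5:**
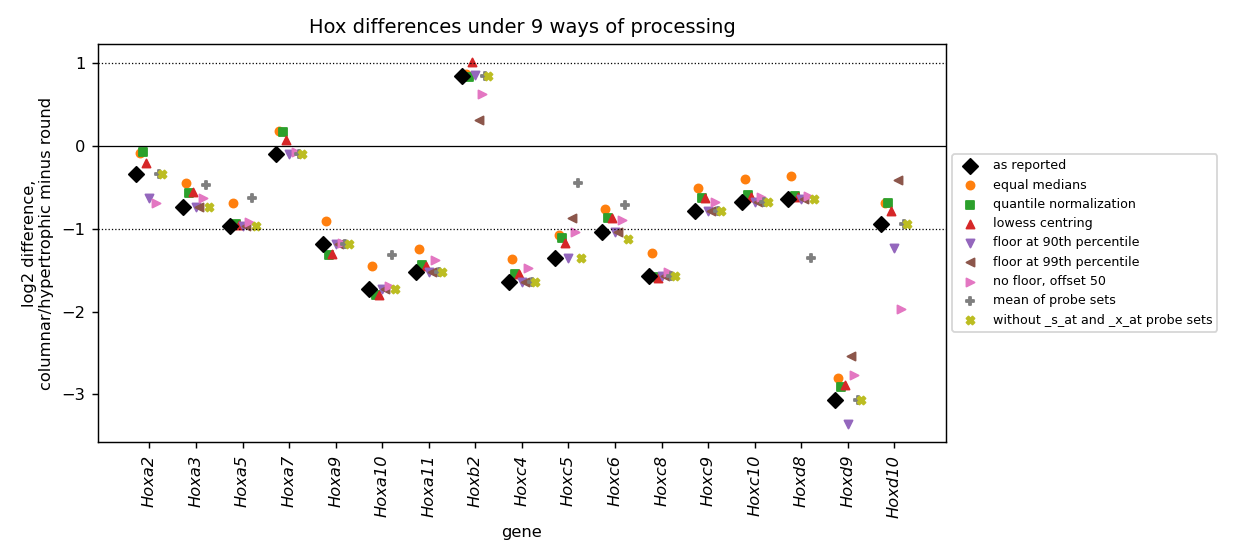
Log2 difference (vertical axis, columnar/hypertrophic minus round) of the 17 Hox genes above the floor on at least 1 array (horizontal axis) under 9 ways of processing, with the reported value as a black diamond, other symbols for alternatives and dotted lines at 2-fold. Hoxa10, Hoxa11, Hoxc4, Hoxc8 and Hoxd9 stay under -1 throughout, Hoxa7 lies on both sides of 0 and Hoxb2 stays above it.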

How the data were processed

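Gene expression was measured on 2 Affymetrix mouse genome arrays, 1 of columnar/hypertrophic and 1 of round chondrocyte cartilage from wild-type C57BL/6J embryos. As deposited, the table holds intensities on a linear scale for 45101 probe sets. MAS5 is named in the submitters' processing notes, with no version. The algorithm subtracts background and scales each array, and the trimmed mean without the outer 2% was 500.0 on both. The methods of the study name robust multiarray analysis, whose log scale these values do not have. Scaling of this kind assumes comparable total signal on both arrays.

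The platform annotation gave 1 gene symbol for 34945 probe sets and several for 932, and those with several stand for no gene. The floor of 100.5 was the 95th percentile of 87 chemosensory receptor probe sets over both arrays. It was exceeded by 50.8% of probe sets on the columnar/hypertrophic array and 55.0% on the round array. Each gene was represented by its brightest probe set, by mean log2 floored signal. No test was possible with single arrays, so genes were counted at 2-fold. Precision is limited by the number of arrays. Counting was tested on simulated data, in which bright genes were lowered by more than most Hox differences here. Calls near the floor or near 2-fold were not covered by it.

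Values are given for each Hox gene above the floor on at least 1 array, for every probe set where a gene passed 2-fold or its probe sets disagreed, and for up to 4 members with the largest differences of each other list. Other genes or groupings were chosen after their values were seen. The members and lists were chosen with earlier results of these data known. Promoter windows came from RefSeq (GRCm38.p6). Alternatives were 3 other scalings (equal medians, quantile, lowess), floors at the 90th and 99th percentile, no floor with an offset of 50, the mean of all probe sets of a gene, no probe sets of the s and x kinds, only genes measured on both arrays, and 1.5-fold. Python 3.11.15, pandas 2.3.3, numpy 2.4.6, statsmodels 0.14.6 and matplotlib 3.10.9 were used.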

Additional observations from a re-analysis of the deposited data

How the results depend on the processing

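The count of Hox genes at least 2-fold lower was 8 and lay between 6 and 9 over the scalings, floors and choices of probe set tried. At 1.5-fold, 14 were lower and 1 higher, against 15.8% and 11.7% of all named genes, and with lowess centring 1 gene, Hoxb2, passed 2-fold higher.

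The median of the Hox genes was -0.69 with equal medians, -0.88 with quantile normalization, -0.87 with lowess centring and -0.79 with the mean of all probe sets. For HoxA it was -0.69 with equal medians, -1.19 under the 99th percentile floor and -0.64 when probe sets were averaged. For HoxC it was -0.92 with equal medians, -0.997 with quantile normalization, -1.02 with lowess centring, -0.95 with the floor at the 99th percentile, -0.97 with the offset and -0.76 with the mean of probe sets. For HoxD it was -0.69 with equal medians, -0.69 with quantile normalization, -1.24 with the floor at the 90th percentile, -0.65 at the 99th, -1.97 with the offset and -1.36 with the mean of probe sets.

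Equal medians moved the median of all named genes to 0.22, with 3.66% at least 2-fold lower and 8.33% higher, against 6.37% and 4.31% as reported, so the Hox median there is -0.91 relative to that of all named genes. No paired analysis was possible because each group is 1 array. Hoxa2 and Hoxd10, near the floor, have values set largely by where it lies. Hoxb2 and Hoxc5 are near it as well, and the floor at the 99th percentile moved them to 0.31 and -0.87. The spread between embryos was not measured.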
